A study of Mus musculus with 6 samples.

Results

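The mRNAs of the redox system were examined in mPASMCs, smooth muscle cells of the mouse pulmonary artery that contract to narrow the vessel, after knockdown of the long non-coding RNA *Snhg18*. The 45 genes code for the NRF2 regulators, the enzymes of glutathione and thioredoxin, the peroxidases and superoxide dismutases, the NADPH oxidases, the pentose phosphate enzymes that supply NADPH, and glutathione transferases. They were chosen by gene symbol from the 55487 genes of the deposited table, and all 45 symbols were found. Of these, 43 had enough reads to be tested, and *Nox1* and *Cybb* had not.

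The cells were primary mPASMCs from a commercial supplier. One group was transfected with a negative control siRNA (si-NC, labelled Control) and the other with an siRNA against *Snhg18* (si-*Snhg18*, labelled *Snhg18* knockdown), with 3 libraries each. A single siRNA sequence was listed for mouse *Snhg18*. The labels give no oxygen level or time after transfection for these libraries, and nothing states that the 3 libraries of a group came from separate cultures, so p-values measure only the spread between these libraries. In RNA from whole cultures, a different mix of cells and less RNA per cell cannot be told apart.

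NRF2, encoded by *Nfe2l2*, is a transcription factor that is held low by KEAP1, which delivers it to a ubiquitin ligase. When KEAP1 is oxidized, NRF2 pairs with a small MAF protein on antioxidant response elements and activates genes for quinone reduction, glutathione and thioredoxin. BACH1 binds the same elements and represses them. The enzymes draw on NADPH, and NADPH oxidases use the same cofactor to make superoxide and hydrogen peroxide, with NOX4 the best known oxidase of vascular smooth muscle.

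The core of the antioxidant response element, TGACNNNGC on either strand, was searched in the RefSeq promoters of GRCm38.p6, from 250 bases before to 50 bases after each start. It was present for 9 of the 39 members with a promoter entry (23.1%), against 14.0% of 27025 genes. A gene can have several entries, and counted per promoter it was 9 of 51 (17.6%) against 12.4% of 32851. The difference in these shares was not tested. Of the 10 members with an entry that were higher with the replicate block described below, 3 had the core, as did 1 of 6 that were lower and 5 of 23 that were not called. The 23 include *Nox1* and *Cybb*, which were not tested and had no match. *Hmox1*, *Gclc*, *Gsr*, *Prdx6*, *Sod3* and *Gsta4* had no entry. Of the 10 members called without the block, *Prdx1* had it, *Gclc* and *Prdx6* had no entry, and for the others these letters do not occur within the searched bases. Sequence outside these bases was not searched, so a gene without a match may hold the core elsewhere. The windows below show every match that lies before the start, with the core in capitals and its surroundings in the direction of the gene. A match is a description of letters, not evidence of binding.
*Prdx1*, chr4:116685442-116685498, plus strand: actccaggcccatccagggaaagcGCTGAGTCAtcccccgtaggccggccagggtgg
*G6pdx*, chrX:74428905-74428961, minus strand: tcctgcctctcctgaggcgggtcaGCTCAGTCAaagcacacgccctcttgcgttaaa
*Gclm*, chr3:122245399-122245455, plus strand: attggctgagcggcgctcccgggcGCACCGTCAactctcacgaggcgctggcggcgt
*Txnrd1*, chr10:82859090-82859146, plus strand: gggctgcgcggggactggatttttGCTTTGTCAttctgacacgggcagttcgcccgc
*Sod1*, chr16:90220682-90220738, plus strand: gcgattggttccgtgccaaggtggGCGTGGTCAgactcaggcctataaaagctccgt
*Mgst1*, chr6:138140447-138140503, plus strand: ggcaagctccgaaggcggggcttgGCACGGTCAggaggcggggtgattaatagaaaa
*Nfe2l2*, chr2:75704871-75704913, minus strand: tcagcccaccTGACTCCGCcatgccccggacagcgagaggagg
The *Prdx1* core lies 133 bases before the start and that of *Txnrd1* 92 bases before it. The letters do not occur in the window of *Nqo1*. *Srxn1* and *Pgd* had the core after the start, and those letters are not shown.

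The libraries held 18097718 to 25988746 counted reads, so that 3 reads, taken as the floor, equal 0.115 to 0.166 CPM (counts scaled to library size), which covers counting error only. *Snhg18* (chromosome 15, 32240565 to 32244662, minus strand) was at 23.5, 22.4 and 22.1 CPM in si-NC libraries 1 to 3 and 10.6, 11.1 and 9.96 CPM in si-*Snhg18* libraries 1 to 3, so that 46.7% remained (log2 fold change -1.10 ± 0.10 SE, adjusted p = 0.00727). The exact permutation test of these values gave a two-sided p of 0.1, the smallest that 3 libraries against 3 allow. The libraries numbered 2 stood apart from the others in both groups. Across genes, libraries that share a number deviated together from their groups (r = 0.41, 0.742 and 0.359). Deviations within a group sum to 0, so the distance of the libraries numbered 2 can by itself raise the correlations of those numbered 1 and 3. Libraries of different number were not compared, so whether the numbers mark shared cultures was not tested. Values with the replicate number as a block are given where they change a call. Smooth muscle markers had a summed level of 1986 to 2113 CPM in si-NC and 1370 to 2078 CPM in si-*Snhg18* libraries. Of the 7, *Acta2* and *Tagln* were the highest in si-NC cells (means of 866 and 684 CPM) and *Myh11* and *Lmod1* the lowest (18.6 and 25.4 CPM). Without the block 1 of the 7 passed the test (*Tagln*, lower, adjusted p = 0.0427). With the block 4 of the 7 were lower (*Tagln*, *Cnn1*, *Myh11* and *Myl9*, adjusted p = 0.00375, 0.0113, 0.0207 and 0.0436). Fibroblast markers summed to 2261 to 2954 CPM and 1374 to 2213 CPM, epithelial markers to 79.7 to 88.3 CPM and 46.2 to 55.4 CPM, leukocyte markers to 20.2 to 43.1 CPM and 24.3 to 63.6 CPM, and endothelial markers to 12.5 to 14 CPM and 13.4 to 15.4 CPM. With the block 2 of 4 tested fibroblast markers (*Pdgfra* and *Col1a1*), 2 of 2 epithelial markers (*Krt18* and *Krt19*) and 1 of 4 endothelial markers (*Tek*) were lower and 1 of 4 leukocyte markers (*Cd14*) was higher, none of which was called without it. Over all tested genes, 7.36% were called without the block and 27.2% with it (13.6% in each direction), and the marker counts were not tested against these shares. *Adgre1* and *Sftpc* were at 0 in every library, and the part of these marker levels in the results below was not tested.

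Knockdown of *Snhg18* was accompanied by changes in both directions among the redox genes. Without the block, 7 of the 43 tested members rose (*Bach1*, *Gclc*, *Prdx1*, *Prdx5*, *Nox4*, *Taldo1* and *Tkt*) and 3 fell (*Prdx3*, *Prdx6* and *Cyba*) at an adjusted p under 0.05. This was 23.3% of the tested members, against a background of 7.36% over all 14531 tested genes (3.65% higher and 3.71% lower). At least a 1.5-fold change was found for *Bach1* and *Gclc*, which rose, and for *Prdx3*, which fell, where the background was 1.72% and 1.95% (3.67% in either direction). *Prdx1*, at 1.497-fold, lay just under that line. With the replicate block, 19 members were called, 11 higher and 8 lower, which is 44.2% against a background of 27.2% (13.6% in each direction). Of the 19, 3 were at least 1.5-fold higher (*Bach1*, *Nqo1* and *Gclc*, background 4.24%) and 3 at least 1.5-fold lower (*Prdx3*, *Sod3* and *Mgst3*, background 5.85%), where all genes gave 10.1% in either direction. All 10 genes called without the block were among the 19, with the same direction. The other 9 were *Nqo1*, *Srxn1*, *Sod2* and *Pgd*, which were higher, and *Nfe2l2*, *Keap1*, *Gpx3*, *Sod3* and *Mgst3*, which were lower. The groups did not overlap for 15 members that were higher and 8 that were lower in si-*Snhg18* cells, against 15.3% and 15.5% of all tested genes (30.9% together). In the same-numbered pairs, 22 members were higher in 3 of 3, against 29.6% of all tested genes, and 9 were lower in 3 of 3, as were 4365 of the 14531 tested genes. The median log2 fold change was 0.12 over the tested members and 0.01 over all tested genes. These shares describe the members and were not tested as a set.

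The calls depended on the libraries used. Leaving out si-NC 1, si-NC 2, si-NC 3 or si-*Snhg18* 3 gave 0 called members by edgeR's test, with 17, 16, 16 and 14 members at an unadjusted p under 0.05. In these fits the share of all tested genes that was called fell as well, to 0.0%, 1.06%, 0.0% and 0.0%. Without si-*Snhg18* 1, 2 members (*Prdx1* and *Prdx6*) were called against a background of 2.16%, and without si-*Snhg18* 2, 15 against a background of 22.1%. Without both libraries numbered 2, 18 members were called against a background of 27.6%, and all 18 were among the 19 called with the block. Over all 6 libraries, DESeq2 called 12 members against 14.6% of all genes, and limma-voom 9 against 7.13%. With each library left out, the log2 fold change of *Tkt* ranged from 0.48 to 0.66 (adjusted p from edgeR's test 0.00853 to 0.185) and that of *Taldo1* from 0.29 to 0.38 (0.0202 to 0.185). *Prdx5* ranged from 0.32 to 0.44 (0.0114 to 0.186) and *Prdx6* from -0.56 to -0.47 (0.0101 to 0.0978). *Gclc* had adjusted p-values of 0.00506 to 0.119. Other ranges for *Bach1*, *Gclc*, *Prdx1*, *Prdx3*, *Nox4* and *Cyba* are given below. Positions given below are those of protein-coding genes on GRCm38.

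**Figure D1:**
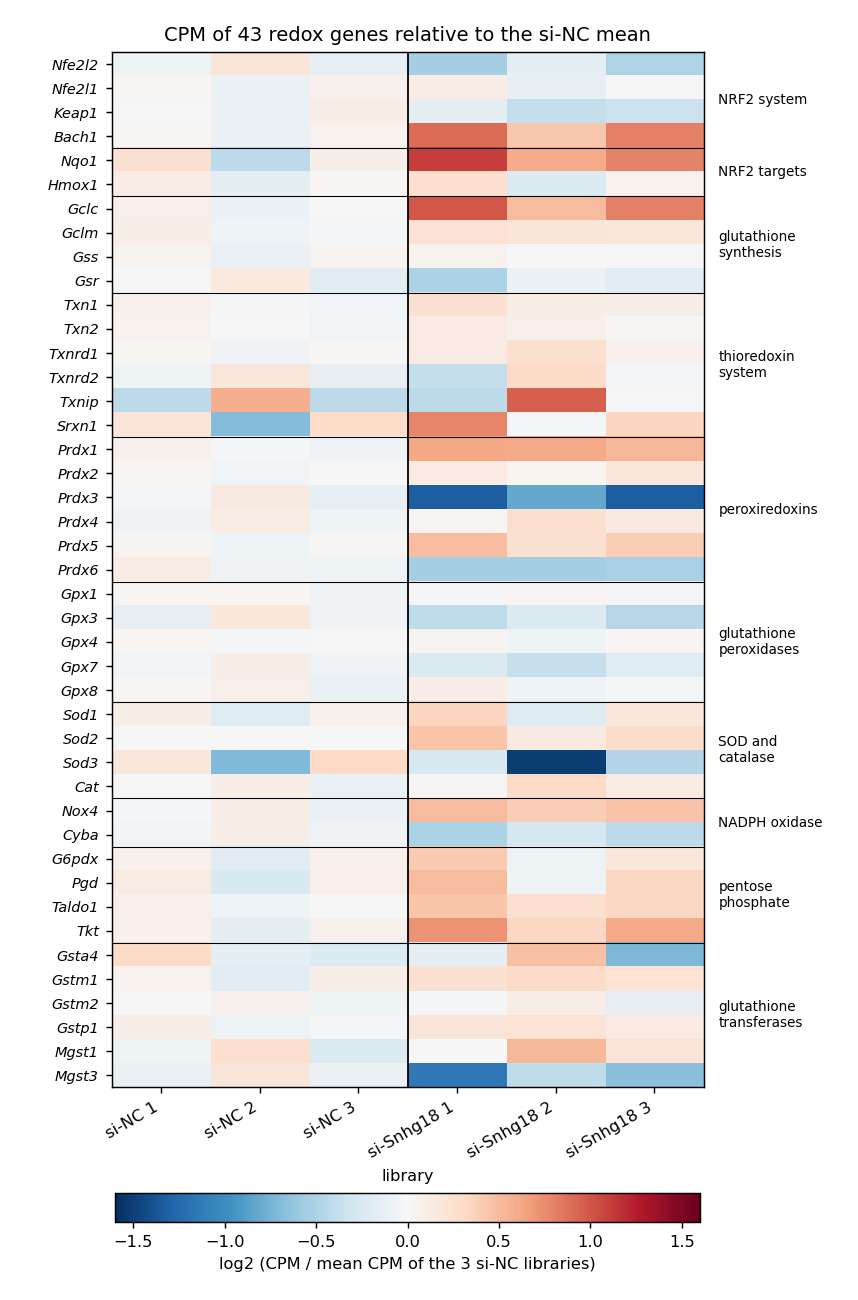
Each cell gives the log2 ratio of the CPM of one gene (rows, grouped by role) in one library (columns) to the mean CPM of the 3 si-NC libraries, red for higher and blue for lower. *Bach1*, *Nqo1*, *Gclc* and *Prdx1* are red in all 3 si-*Snhg18* libraries and *Prdx3* and *Prdx6* are blue, while *Txnip*, *Srxn1* and *Sod3* differ widely between libraries of one group.

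**Figure D2:**
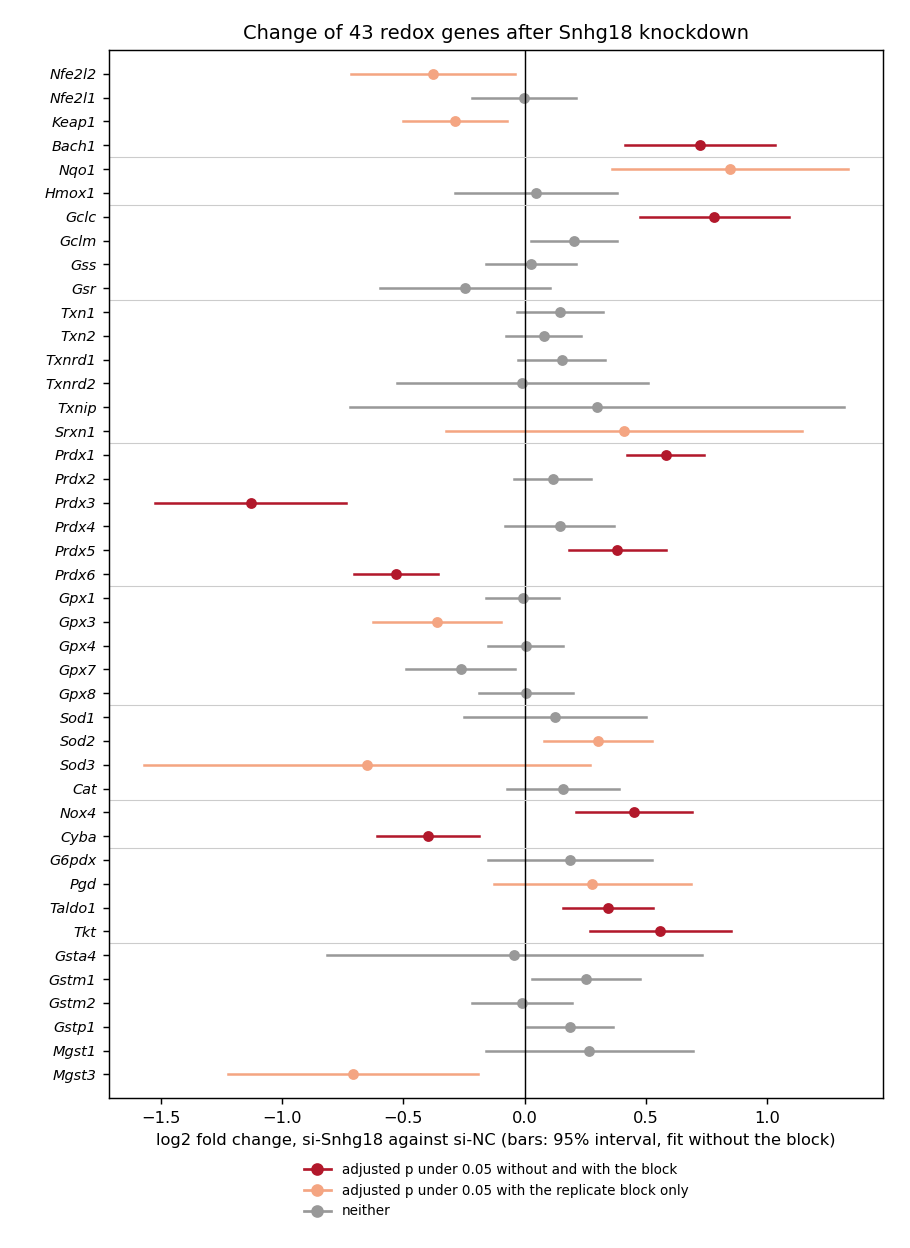
Points give the log2 fold change of each of the 43 tested members in si-*Snhg18* against si-NC cells, with bars for the 95% interval from the fit without the block. Dark red marks the 10 members called without and with the block, light red the 9 called with the block but not without it and grey the others, and *Prdx3* has the lowest and *Nqo1* the highest value.

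Among the regulators of the NRF2 system, the gene of the repressor rose, while those of the activator and its adaptor were lower with the block and were not called without it. *Bach1* (ENSMUSG00000025612, chromosome 16, 87698945 to 87733346, plus strand), the repressor, was at 41.8, 38.6 and 42.7 CPM in si-NC libraries 1 to 3 and 76.2, 55.5 and 71.5 CPM in si-*Snhg18* libraries 1 to 3. The groups did not overlap, and the lowest si-*Snhg18* value was that of library 2. On average it was at 41 ± 2.15 CPM with si-NC and 67.7 ± 10.8 CPM with si-*Snhg18* (SD, n = 3), a log2 fold change of 0.72 ± 0.13 (SE, adjusted p = 0.0278). With each library left out in turn it stayed at 0.63 to 0.84, with adjusted p-values of 0.00474 to 0.14.

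*Nfe2l2*, the activator, was at 247, 301 and 239 CPM in si-NC and 181, 238 and 186 CPM in si-*Snhg18* libraries, and its groups were separated by less than 1 CPM. The log2 fold change of -0.38 ± 0.14 (SE) had an adjusted p of 0.162, or 0.00361 with the block. *Keap1*, the adaptor that targets NRF2 for degradation, was at 75.2, 70.9 and 80.4 CPM and 67.9, 58.1 and 59.7 CPM, again without overlap (log2 fold change -0.29, adjusted p = 0.112, or 0.026 with the block). An antisense gene, *Gm16754*, overlaps *Keap1* and had 39 to 58 reads. *Nfe2l1*, a related factor that controls proteasome genes, had a log2 fold change of -0.0024 with a 95% interval of -0.21 to 0.21. As CPM per kilobase of exon (RPKM), the ratio of *Bach1* to *Nfe2l2* mRNA was 0.0713, 0.0541 and 0.0755 in the si-NC libraries and 0.178, 0.0984 and 0.162 in the si-*Snhg18* libraries. *Nfe2l2* was thus the more abundant mRNA per length in every library, by a smaller margin after knockdown.

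Of the classical target enzymes, *Nqo1* was called with the block and not without it by edgeR's quasi-likelihood test, and *Hmox1* was called in neither fit. *Nqo1*, the quinone reductase that is often read as a sign of NRF2 activity, was at 72.8, 45.8 and 65.4 CPM in si-NC and 132, 92.7 and 106 CPM in si-*Snhg18* libraries. It was higher in each of the 3 same-numbered pairs, and library 2 was the lowest of its group on both sides. The log2 fold change was 0.85 ± 0.20 (SE), the highest of all members, with an adjusted p of 0.0573 and of 0.000753 with the block. Without the block, DESeq2 gave an adjusted p of 0.00231, the likelihood ratio test 0.00434, the omission of TMM factors 0.0463 and the test of every gene with at least 1 read 0.0379. *Nqo1* did not pass by limma-voom (0.0579). By edgeR's quasi-likelihood test it also did not pass with RLE factors (0.0595) or a filter of a mean of at least 1 CPM (0.0555). *Hmox1*, the heme oxygenase that BACH1 is best known to repress, had the highest level of all members per deposited exon length (512 RPKM in si-NC cells). It was at 869.9, 718 and 821 CPM and 965, 688 and 835 CPM, with overlapping groups, and its log2 fold change of 0.05 had a 95% interval of -0.29 to 0.38 (adjusted p = 0.868). Its sign turned without si-NC 2 or without si-*Snhg18* 1.

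Glutathione is made by a ligase of a catalytic subunit, GCLC, and a modifier subunit, GCLM, followed by the synthetase GSS, and is returned to its reduced form by GSR. *Gclc* (ENSMUSG00000032350, chromosome 9, 77754535 to 77794485, plus strand) was at 75.6, 66.8 and 71.3 CPM in si-NC and 141, 102 and 125 CPM in si-*Snhg18* libraries, without overlap. On average it was at 71.2 ± 4.43 CPM with si-NC and 122 ± 20 CPM with si-*Snhg18* (SD, n = 3), a log2 fold change of 0.78 ± 0.13 (SE, adjusted p = 0.0225), which stayed at 0.67 to 0.90 with each library left out. *Gclm* was at 60.7, 53.9 and 55.2 CPM and 66.7, 64.9 and 64.1 CPM. Its groups did not overlap either, but the log2 fold change was 0.21 and the adjusted p 0.151, or 0.0506 with the block. The ratio of *Gclc* to *Gclm* mRNA in RPKM was 2.03, 2.02 and 2.11 in the si-NC libraries and 3.46, 2.55 and 3.18 in the si-*Snhg18* libraries. *Gss* and *Gsr* did not pass, with log2 fold changes of 0.03 (95% interval -0.16 to 0.21) and -0.25 (-0.60 to 0.11). *Gss* overlaps *Acss2* on the opposite strand, which had 272 to 908 reads.

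In the thioredoxin system 0 of 6 members passed edgeR's test without the block, 0 had an unadjusted p under 0.05, and DESeq2 and limma-voom called 0. *Txn1*, the cytosolic thioredoxin, was at 156, 146 and 144 CPM in si-NC and 176, 158 and 158 CPM in si-*Snhg18* libraries (log2 fold change 0.15, adjusted p = 0.276). *Txnrd1*, the selenium-containing reductase that recharges it, was at 259, 242 and 256 CPM and 276, 301 and 264 CPM (log2 fold change 0.15, adjusted p = 0.265). Both genes were slightly higher in all si-*Snhg18* libraries, with 95% intervals of -0.03 to 0.32 and -0.03 to 0.33. *Srxn1*, which restores overoxidized peroxiredoxins, was at 174, 92.7 and 184 CPM and 259.7, 148 and 191 CPM. The libraries numbered 2 were the lowest on both sides and the groups overlapped, and the log2 fold change of 0.41 had an adjusted p of 0.454, or 0.0298 with the block. Without both libraries numbered 2 it was 0.33 with an adjusted p of 0.102. *Txnip*, which binds and blocks thioredoxin, was at 67.1, 134 and 66.9 CPM and 66.8, 173 and 89.7 CPM, highest in the libraries numbered 2 of both groups (log2 fold change 0.30, 95% interval -0.72 to 1.32, adjusted p = 0.708), and its sign turned without si-*Snhg18* 2. The mitochondrial pair *Txn2* and *Txnrd2* had log2 fold changes of 0.08 and -0.01.

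The peroxiredoxins, thiol enzymes that remove hydrogen peroxide, held 4 of the 10 called members, with 2 higher and 2 lower. *Prdx1* (ENSMUSG00000028691, chromosome 4, 116685544 to 116700822, plus strand), the main cytosolic form, was at 687, 649 and 629.5 CPM in si-NC and 1004, 994 and 943 CPM in si-*Snhg18* libraries. The groups were far apart relative to their spread, at 655 ± 29.4 CPM with si-NC and 980.4 ± 32.5 CPM with si-*Snhg18* (SD, n = 3). The log2 fold change was 0.58 ± 0.07 (SE, adjusted p = 0.00989), and it stayed at 0.56 to 0.61 with each library left out, with adjusted p-values of 0.00684 to 0.0785.

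*Prdx5* (ENSMUSG00000024953, chromosome 19, 6906697 to 6910106, minus strand), found in mitochondria, peroxisomes and cytosol, was at 224, 206 and 219.9 CPM and 304, 257 and 285 CPM, without overlap. Its log2 fold change was 0.38 ± 0.08 (SE, adjusted p = 0.0456), just inside the threshold, and the likelihood ratio test gave 0.0504. It overlaps *Trmt112* on the opposite strand, which had 300 to 571 reads.

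*Prdx3* (ENSMUSG00000024997, chromosome 19, 60864051 to 60874556, minus strand), the peroxiredoxin confined to mitochondria, fell most of all members. It was at 45.4, 50.5 and 41.7 CPM in si-NC and 18.4, 26.1 and 18.4 CPM in si-*Snhg18* libraries. On average it was at 45.9 ± 4.38 CPM with si-NC and 20.9 ± 4.44 CPM with si-*Snhg18* (SD, n = 3), a log2 fold change of -1.13 ± 0.16 (SE, adjusted p = 0.0172). With each library left out it lay at -1.32 to -1.04, with adjusted p-values of 0.00403 to 0.0989. *Prdx6* (ENSMUSG00000026701, chromosome 1, 161240112 to 161251219, minus strand), which reduces phospholipid hydroperoxides and uses glutathione, was at 301, 268 and 265 CPM and 193, 191 and 193 CPM. The si-*Snhg18* libraries lay within 3 CPM of each other, below every si-NC library (log2 fold change -0.53 ± 0.07 SE, adjusted p = 0.0144).

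*Prdx2*, the second cytosolic form, and *Prdx4*, the form of the endoplasmic reticulum, had log2 fold changes of 0.12 and 0.15, with 95% intervals of -0.04 to 0.28 and -0.08 to 0.37. *Prdx2* overlaps *Rnaseh2a* on the opposite strand, which had 383 to 611 reads. Summed over the family, peroxiredoxin mRNA was at 831, 789 and 783 RPKM in the si-NC libraries and 984, 944 and 951 RPKM in the si-*Snhg18* libraries. *Prdx1* made up 36, 35.8 and 35.1% of it in si-NC and 44.5, 45.9 and 43.2% in si-*Snhg18* libraries. *Prdx3* made up 3.7, 4.33 and 3.61% and 1.26, 1.87 and 1.31%, and *Prdx6* 15.2, 14.2 and 14.2% and 8.21, 8.48 and 8.52%. The ratio of *Prdx1* to *Prdx3* mRNA in RPKM was 9.75, 8.28 and 9.72 in the si-NC and 35.2, 24.6 and 33 in the si-*Snhg18* libraries.

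**Figure D3:**
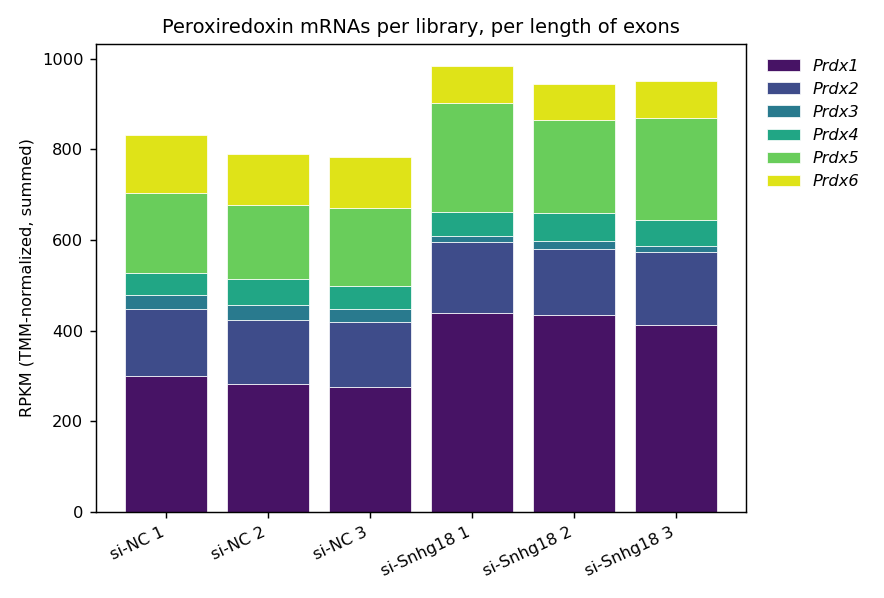
Bars stack the TMM-normalized RPKM of the 6 peroxiredoxin genes in each library. The total is higher in the 3 si-*Snhg18* libraries (984, 944 and 951 RPKM) than in the si-NC libraries (831, 789 and 783 RPKM), with a wider band for *Prdx1* and narrower ones for *Prdx3* and *Prdx6*.

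Of the 5 glutathione peroxidases, 0 passed edgeR's test without the block, 2 had an unadjusted p under 0.05 (*Gpx3* and *Gpx7*), and DESeq2 and limma-voom called 0. *Gpx1*, the cytosolic selenoenzyme, was at 276, 275 and 259 CPM in si-NC and 265, 276 and 264 CPM in si-*Snhg18* libraries, and *Gpx4*, which protects membrane lipids and guards against ferroptosis, was at 196, 189 and 193 CPM and 199.5, 183 and 197 CPM. Their log2 fold changes of -0.008 and 0.0042 had 95% intervals of -0.16 to 0.14 and -0.15 to 0.16, so a change of 1.5-fold lies outside them, and their signs turned under several settings. The pseudogene *Gpx4-ps2* had 710 to 1172 reads, and how reads shared with *Gpx4* were divided is not known. *Gpx3*, the secreted form, was at 51.2, 62.6 and 53.9 CPM and 42, 48 and 40.6 CPM, lower in every si-*Snhg18* library (log2 fold change -0.36, adjusted p = 0.106, or 0.00917 with the block). *Gpx7* and *Gpx8*, of the endoplasmic reticulum, had log2 fold changes of -0.26 and 0.01 and were not called. Of the 5 members that are selenoproteins (*Gpx1*, *Gpx3*, *Gpx4*, *Txnrd1* and *Txnrd2*), 0 passed without the block by edgeR's test, 1 had an unadjusted p under 0.05, DESeq2 and limma-voom called 0, and *Gpx3* passed with the block.

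Superoxide dismutases turn superoxide into hydrogen peroxide, which catalase then breaks down. Of these 4 members, 0 passed edgeR's test without the block, 1 had an unadjusted p under 0.05 (*Sod2*), and DESeq2 and limma-voom called 0. *Sod2*, the mitochondrial form, was at 39.8, 39.7 and 39.8 CPM in si-NC and 54.1, 44 and 49 CPM in si-*Snhg18* libraries, without overlap (log2 fold change 0.30, adjusted p = 0.108, or 0.0339 with the block). Among mitochondrial members it thus lay on the other side of 0 from *Prdx3*. *Sod3*, the secreted form, was at 300.5, 163 and 330.4 CPM and 223, 92.5 and 191 CPM. The library numbered 2 was the lowest in both groups and the groups overlapped, but each si-*Snhg18* library was below its same-numbered si-NC library (log2 fold change -0.65, adjusted p = 0.346, or 0.00209 with the block). *Sod1*, the cytosolic form, was at 111, 90.7 and 108 CPM and 132, 89.3 and 117 CPM, with a 95% interval of -0.25 to 0.50 for the log2 fold change. It overlaps *Scaf4* on the opposite strand, which had 1082 to 1676 reads. *Cat*, peroxisomal catalase, was at 73.5, 77.7 and 68.2 CPM and 74.2, 90.4 and 80.1 CPM (log2 fold change 0.16, adjusted p = 0.359).

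The subunits of the NADPH oxidase changed in opposite directions. *Nox4* (ENSMUSG00000030562, chromosome 7, 87246096 to 87398710, plus strand), the catalytic subunit, was at 15.2, 16.5 and 14.4 CPM in si-NC and 21.8, 20.1 and 21 CPM in si-*Snhg18* libraries, without overlap. On average it was at 15.3 ± 1.06 CPM with si-NC and 21 ± 0.866 CPM with si-*Snhg18* (SD, n = 3), a log2 fold change of 0.45 ± 0.10 (SE, adjusted p = 0.0473). *Cyba* (ENSMUSG00000006519, chromosome 8, 122424776 to 122432930, minus strand), the membrane partner that stabilizes NOX proteins, was at 75.7, 83.5 and 74.8 CPM and 54.9, 64.3 and 58.5 CPM. On average it was at 78 ± 4.79 CPM with si-NC and 59.2 ± 4.75 CPM with si-*Snhg18* (SD, n = 3), a log2 fold change of -0.40 ± 0.09 (SE, adjusted p = 0.0464). Both calls were close to the threshold. With each library left out, *Nox4* had adjusted p-values of 0.0282 to 0.197 and *Cyba* of 0.0145 to 0.192, and *Cyba* was at 0.0723 without TMM factors. The ratio of *Nox4* to *Cyba* mRNA in RPKM was 0.0398, 0.0391 and 0.0381 in the si-NC and 0.0788, 0.0619 and 0.0713 in the si-*Snhg18* libraries. *Nox1*, the other oxidase described in vascular smooth muscle, had 0, 0 and 0 reads in si-NC and 1, 1 and 3 reads in si-*Snhg18* libraries, and *Cybb*, the phagocyte oxidase, had 1 read in all libraries together. Both were at or under the floor of 3 reads in every library.

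The pentose phosphate pathway has an oxidative branch that makes NADPH, with G6PDX and PGD, and a non-oxidative branch that exchanges sugar phosphates with glycolysis, with TKT and TALDO1. All 4 members had log2 fold changes above 0 and were higher in each same-numbered pair, and the 2 of the non-oxidative branch rose. *Tkt* (ENSMUSG00000021957, chromosome 14, 30548359 to 30574720, plus strand), transketolase, was at 315, 268 and 315 CPM in si-NC and 491, 375 and 458 CPM in si-*Snhg18* libraries, without overlap. On average it was at 299 ± 26.9 CPM with si-NC and 441 ± 59.7 CPM with si-*Snhg18* (SD, n = 3), a log2 fold change of 0.56 ± 0.12 (SE, adjusted p = 0.045). *Taldo1* (ENSMUSG00000025503, chromosome 7, 141392199 to 141402968, plus strand), transaldolase, was at 135, 121 and 127 CPM and 173, 152 and 160.1 CPM, also without overlap. Its log2 fold change was 0.34 ± 0.08 (SE, adjusted p = 0.0488), and limma-voom gave an adjusted p of 0.0515.

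*Pgd* was at 379.5, 294 and 369 CPM and 494, 331 and 438 CPM, with overlapping groups (log2 fold change 0.28, adjusted p = 0.358, or 0.0181 with the block). *G6pdx*, the first enzyme of the oxidative branch, was at 145, 123 and 146 CPM and 185, 130.4 and 156 CPM (log2 fold change 0.19, 95% interval -0.15 to 0.53, adjusted p = 0.456, or 0.105 with the block). It overlaps *Ikbkg* on the opposite strand, which had 1217 to 1741 reads. Over the 4 genes, the summed level was 433, 361 and 422 RPKM in the si-NC and 586, 439 and 529 RPKM in the si-*Snhg18* libraries, with library 2 the lowest in both groups.

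**Figure D4:**
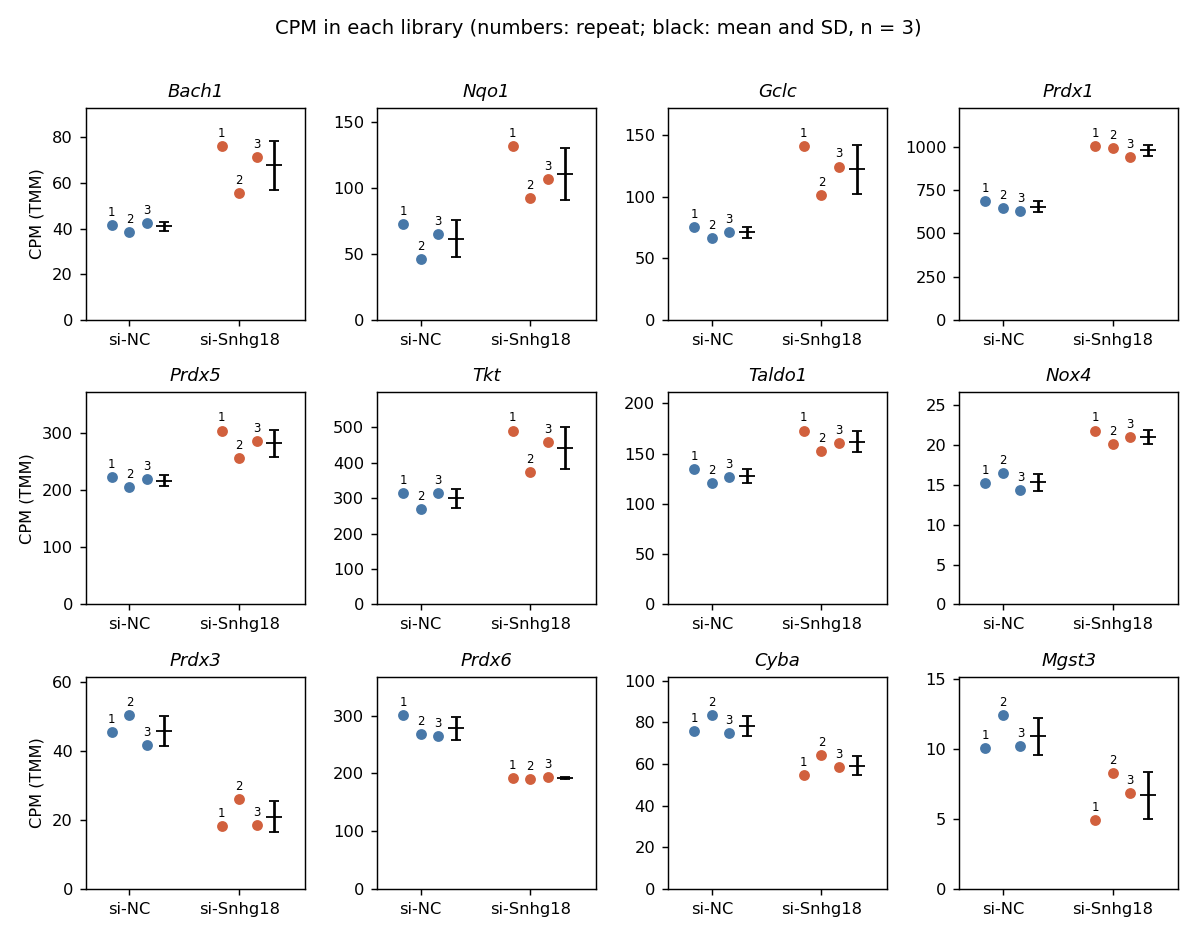
Points give the TMM-normalized CPM of 12 members in each library, numbered by repeat, with the mean and SD (n = 3) in black and each axis starting at 0. The 8 genes of the first and second rows lie above si-NC without overlap after knockdown and the 4 of the last row lie below it. By edgeR's quasi-likelihood test *Nqo1* and *Mgst3* passed with the replicate block and not without it. Without the block DESeq2 called both and limma-voom neither.

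Glutathione transferases join glutathione to reactive compounds, and 0 of the 6 members passed without the block by edgeR's test, with 3 at an unadjusted p under 0.05, 1 called by DESeq2 (*Mgst3*) and 0 by limma-voom. *Gstm1* was at 55, 46.9 and 56.9 CPM in si-NC and 62.6, 65.2 and 61.3 CPM in si-*Snhg18* libraries, without overlap (log2 fold change 0.25, adjusted p = 0.155). *Mgst3*, a membrane enzyme with transferase and peroxidase activity, was at 10.1, 12.4 and 10.2 CPM and 4.94, 8.26 and 6.84 CPM. It was lower in every si-*Snhg18* library, with a log2 fold change of -0.71 (SE 0.21, adjusted p = 0.105, or 0.0113 with the block). *Gstp1*, *Mgst1*, *Gstm2* and *Gsta4* had log2 fold changes of 0.19, 0.27, -0.01 and -0.04. The *Gstm* genes are closely related neighbours on chromosome 3, and *Gstp1* has a pseudogene with 103 to 183 reads, so the division of reads among them is uncertain. Over all roles, the 24 tested members that passed in neither fit had log2 fold changes between -0.26 and 0.30.

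The other genes of these pathways were taken from a list of 93 genes that holds no member, of which 75 were tested. Without the block 3 rose and 4 fell, which is 9.33% against the background of 7.36%, and with the block 18 were higher and 9 lower, 36.0% against 27.2%. The median log2 fold change was 0.02. The genes that rose were *Fth1* and *Ftl1*, the ferritin chains that store iron, and *H6pd*, which makes NADPH inside the endoplasmic reticulum. *Fth1* went from 1874, 1801 and 1752 CPM to 2809, 2618 and 2583 CPM (log2 fold change 0.56, adjusted p = 0.0106) and *Ftl1* from 2021, 1975 and 1888 CPM to 2866, 2801 and 2732 CPM (log2 fold change 0.51, adjusted p = 0.0111). *H6pd* went from 844, 934 and 855 CPM to 1307, 1331 and 1272 CPM (log2 fold change 0.57, adjusted p = 0.0106). For these genes each si-*Snhg18* value was above each si-NC value. *Selenot*, a selenoprotein of the endoplasmic reticulum, fell from 235, 217 and 237 CPM to 147, 133 and 134 CPM (log2 fold change -0.74, adjusted p = 0.00761). The others that fell were *Sesn2*, a stress-induced sestrin (log2 fold change -0.48, adjusted p = 0.0284), *Gstcd* (-0.51, adjusted p = 0.0369) and *Ephx1*, an epoxide hydrolase (-0.30, adjusted p = 0.0473). By role, the small MAF genes *Maff*, *Mafg* and *Mafk*, partners of NRF2 and BACH1, had log2 fold changes of 0.42, 0.32 and 0.41, and passed with the block but not without it (adjusted p = 0.0176, 0.026 and 0.0206). The genes listed with the pentose phosphate pathway had the largest share called with the block. Of 7 tested, 3 were higher and 2 lower (71.4%, against 27.2% of all tested genes). Among these calls were *Idh1*, higher, and *Idh2*, lower (adjusted p with the block = 0.00475 and 0.0257). Both are isocitrate dehydrogenases and not enzymes of that pathway, so the share does not describe the pathway alone. Of the 13 tested transferases of the list, 3 (*Gsto1*, *Gstz1* and *Gstcd*, 23.1%) were lower with the block, against 13.6% of all tested genes. A log2 fold change below 0 was found for 11 of the 13, as for 7147 of all 14531 tested genes. The 6 transferases among the members were split into 3 above and 3 below 0. The small MAF genes and the roles set out here were picked after their values had been seen.

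The members also differed between libraries of one group, in the same way on both sides. In both groups the library numbered 2 was the lowest of the 3 for 18 of the 43 tested members (41.9%) and the highest for 12 (27.9%), against 29.8% and 32.2% of all tested genes. *Sod3* in library 2 lay -0.95 (log2 CPM) from the mean of the other si-NC libraries and -1.16 from that of the other si-*Snhg18* libraries. *Srxn1* lay -0.95 and -0.59 from them, *Nqo1* -0.59 and -0.35, and *Txnip*, on the other side, 1.00 and 1.16. These differences between libraries of one group exceeded the group difference for *Sod3*, *Srxn1* and *Txnip*. In total, the 45 members took 0.677, 0.623 and 0.651% of the counted reads of the si-NC libraries and 0.753, 0.696 and 0.724% of those of the si-*Snhg18* libraries, lowest in library 2 of each group.

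**Figure D5:**
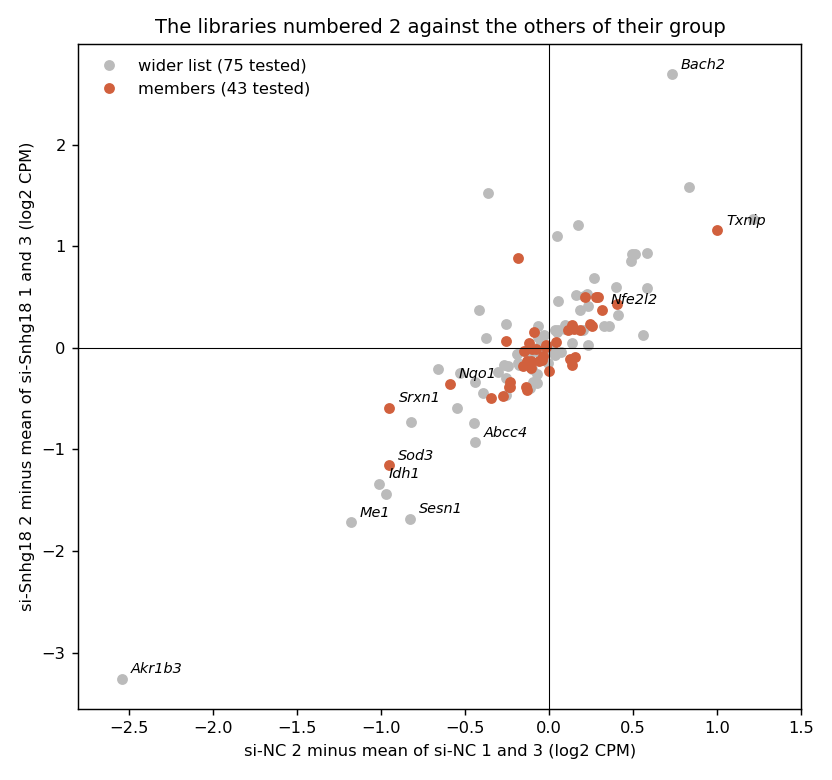
Each point is a tested gene, with the difference of si-NC 2 from the mean of si-NC 1 and 3 on the x axis and that of si-*Snhg18* 2 from the mean of si-*Snhg18* 1 and 3 on the y axis, both in log2 CPM. Members are coloured and the wider list is grey, and most of the genes with large values lie in the lower left (*Akr1b3*, *Me1*, *Idh1*, *Sod3*) or the upper right (*Bach2*, *Txnip*).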

How the data were processed

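The libraries were made by the authors with a stranded mRNA kit from total RNA of transfected mPASMCs. The authors deposited raw counts of reads per Ensembl gene of GRCm38.p6, per the file headers, with the exon length of each gene. The submitters' processing notes name HISAT2 and mm10. The counting program and its strand setting are not given in the sources used here, so how reads were assigned between related genes, or between overlapping genes of opposite strand, is not known.

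From these counts, edgeR 4.0.16 in R 4.3.3 was used with filterByExpr (minimum count 10, which left 14531 genes), TMM factors and the quasi-likelihood test (glmQLFit, glmQLFTest) of si-*Snhg18* against si-NC. P-values were adjusted by Benjamini-Hochberg over all tested genes, and a gene was called at an adjusted p under 0.05. The prior count of log2 CPM was 2. RPKM is TMM-normalized CPM per kilobase of the deposited exon length of each gene. The lengths of the transcripts expressed in these cells were not determined, so levels, shares and ratios that set different genes side by side depend on the deposited lengths. The tests were run on simulated counts with known changes. Those counts held no effect of library number, so they do not check the block against the pattern seen here.

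Groups and repeat numbers came from the sample titles. The repeat numbers were taken to pair the libraries because every same-numbered pair had a correlation of deviations above 0.1. These correlations are not independent. With the libraries numbered 2 apart in both groups, this rule could be met without shared cultures. The fit with this block is the alternative to the planned fit. Other alternatives were RLE factors, library totals without TMM, DESeq2 1.42.0, the likelihood ratio test, limma-voom (limma 3.58.1), other filters and thresholds, and leaving out each library. Leaving out both libraries of one number was chosen after seeing the data.

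The members and lists were chosen with earlier results of these data known. Values in every library were given for each member called in either fit (19) and for fixed members of each role, 30 in all, and wider-list genes were named where called without the block.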

Additional observations from a re-analysis of the deposited data

How the results depend on the processing

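The number of called members was 10 and lay between 7 and 12 with RLE factors, without TMM, with DESeq2, the likelihood ratio test, limma-voom, the other filters and an adjusted p under 0.1, where 3.51% to 14.6% of all tested genes were called. It was 19 (27.2% of all genes) with the replicate number as a block and 3 (3.67%) with a 1.5-fold change required. It ranged from 0 to 15 with each library left out (0.0% to 22.1% of all genes), and was 0, 18 and 0 (0.0%, 27.6% and 0.0% of all genes) without both libraries numbered 1, 2 and 3, with 13, 21 and 9 members at an unadjusted p under 0.05. Of the 10, *Prdx5*, *Nox4* and *Taldo1* were no longer called by the likelihood ratio test, *Taldo1* also with RLE factors and limma-voom, *Cyba* without TMM, and all 4 with every gene of at least 1 read. The 7 called genes of the wider list became 16 with DESeq2 (14.6% of all genes), 27 with the replicate block, 15 at an adjusted p under 0.1 (13.5%) and 1 with a 1.5-fold change required. Against the same shares, they ranged from 0 to 24 with each library left out, and were 0, 31 and 0 without both libraries numbered 1, 2 and 3 (14, 43 and 9 unadjusted). The block removed no call of either list. *Snhg18* stayed between -1.14 and -1.06 with each library left out, with an adjusted p of 0.0659, 0.07 and 0.0703 without si-NC 1, si-NC 3 and si-*Snhg18* 3, and was at -1.08 (adjusted p = 0.245) and -1.07 (adjusted p = 0.471) without both libraries numbered 1 and 3. Among the 30 members with values in every library and the 7 called genes of the wider list, signs turned for 5, which were called in neither fit. *Hmox1* ranged from -0.077 to 0.161, *Txnip* from -0.197 to 0.711, *Gpx1* from -0.034 to 0.006, *Gpx4* from -0.019 to 0.038 and *Sod1* from -0.002 to 0.264 with each library left out. *Hmox1* was at -0.022, *Gpx1* at 0.012 and *Gpx4* at -0.011 without both libraries numbered 1, and *Gpx4* at -0.009 without both numbered 3. *Gpx1* was at 0.001 without TMM factors and *Gpx4* at -0.009 with every gene of at least 1 read. In fits that use fewer libraries the test has fewer residual degrees of freedom. *Nox1* and *Cybb* are limited by depth.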

Other observations

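Some genes of the wider list, named after their values had been seen, differed more between the libraries of a group than between the groups. *Akr1b3*, an aldose reductase that uses NADPH, was at 1323, 242 and 1509 CPM in si-NC libraries 1 to 3 and 2796, 213 and 1483 CPM in si-*Snhg18* libraries 1 to 3. *Me1*, the cytosolic malic enzyme that makes NADPH, was at 198, 89.1 and 206 CPM and 405, 97.1 and 251 CPM, and *Idh1*, the cytosolic isocitrate dehydrogenase that makes NADPH, was at 318, 166 and 352 CPM and 700.2, 239 and 519 CPM. All were lowest in library 2 of each group. *Selenop*, a secreted selenium carrier, was at 60.9, 138 and 58.2 CPM and 90.3, 245 and 114 CPM, highest in library 2 of each group. *Idh1* and *Selenop* were higher in each same-numbered pair and passed with the replicate block but not without it (adjusted p = 0.00475 and 0.00121 from edgeR's quasi-likelihood test, and 0.307 and 0.351 without it).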
